A study of Mus musculus with 5 samples.

Results

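Mlc1 encodes a membrane protein of astrocyte contacts, and it was examined here with the 4 genes whose products form its complex or work beside it in glia: Hepacam, Clcn2, Gja1 and Kcnj10. The 5 genes were taken from a table of 56941 gene identifiers, of which 19713 had at least 10 counts in at least 1 library, and all 5 members were among those. Mlc1 was selected on its measured rise in DBA/2J over Gpnmb+ in these counts, so its difference between the genotypes is given as a description and without a test. The partners were listed for their known association with MLC1. They and the gene lists below were chosen with earlier results of these data known.

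RNA of the iridocorneal angle, the ring between iris and cornea where aqueous humor leaves the eye, was sequenced from untreated mice aged 12 months. The study states both sexes for each genotype, which the Y-linked counts below do not show for Gpnmb+. The iris and ciliary body had been taken off, with some of both left on the ring. The 3 DBA/2J pools came from mice that carry a nonsense allele of Gpnmb and the b allele of Tyrp1, and that develop pigment dispersion and raised intraocular pressure with age. The 2 Gpnmb+ pools came from DBA/2J-Gpnmb+/SjJ mice, in which the functional Gpnmb allele is restored and the Tyrp1 b allele is kept. A pool is stated to hold RNA of 3 mice, but the library names list 3 animals for DBA/2J pools and 2 for Gpnmb+ pools. P-values measure the spread between these pools, and a bulk library cannot tell fewer cells of a type from less RNA per cell.

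MLC1 spans the membrane several times and is held at astrocyte junctions by the adhesion protein GlialCAM, the product of Hepacam. GlialCAM also brings the chloride channel ClC-2, the product of Clcn2, to these junctions, and loss of MLC1 or GlialCAM causes a leukodystrophy with vacuolated myelin. Connexin 43, the product of Gja1, couples astrocytes through gap junctions. Kir4.1, the product of Kcnj10, carries the potassium that glial cells, Müller cells of the retina included, take up and redistribute. In the eye, connexin 43 is also abundant in corneal epithelium and endothelium and joins the pigmented and nonpigmented layers of the ciliary epithelium.

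The libraries held 43900661 to 49837758 counts on genes. Gpnmb had 43.6 to 52.0 CPM (counts relative to the TMM-scaled library size) in DBA/2J, against 2260 and 2556 in Gpnmb+. Retinal RNA differed between pools: 8 photoreceptor markers summed to 583 to 858 CPM in DBA/2J, to 350 in Gpnmb+ pool 1 and to 1911 in Gpnmb+ pool 2. Y-linked genes also differed, with 4 of 4 tested genes at 0 to 4 counts in both Gpnmb+ pools and at 325 to 4168 counts in the DBA/2J pools. Xist, made from the inactive X chromosome of females, ran from 0 to 2417 counts in DBA/2J pools and had 7843 and 9152 in the others. Both Gpnmb+ pools thus held almost no Y-linked RNA, although the study lists males and females in each genotype. Sex and genotype cannot be told apart for any gene that follows sex, and whether Mlc1 does was not tested. The 6 tested trabecular meshwork markers of 7 listed summed to 1131 to 1360 CPM in DBA/2J and to 1609 and 1620 in Gpnmb+, so markers of the labelled tissue were detected in every pool.

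Mlc1 lies on chromosome 15 of GRCm39 from 88840084 to 88863356, on the minus strand. The 300 bases around the start site are printed for Slc1a3, the one gene of the pathway lists below that passed the test, and for the partners Hepacam and Kcnj10, which did not. Each runs 5′ to 3′ on the gene's strand from 250 bases before the start of the canonical GENCODE transcript to 50 after it, in GRCm39. The windows are chr15:8740227-8740526 (minus strand) for Slc1a3, chr9:37278397-37278696 (plus strand) for Hepacam and chr1:172168515-172168814 (plus strand) for Kcnj10. Capitals mark matches, on either strand, to 6 short motifs. The SOX motif was spelled AACAAT, the homeobox motif was spelled TAATTA, the TEAD motif was spelled GGAATG, the NFI half-site was spelled TTGGCA, the AP-1 motif was spelled TGANTCA and the TATA box was spelled TATAAA. The E-box, spelled CANNTG and present in 70.6% of promoters, was also searched and is not in capitals.
Slc1a3: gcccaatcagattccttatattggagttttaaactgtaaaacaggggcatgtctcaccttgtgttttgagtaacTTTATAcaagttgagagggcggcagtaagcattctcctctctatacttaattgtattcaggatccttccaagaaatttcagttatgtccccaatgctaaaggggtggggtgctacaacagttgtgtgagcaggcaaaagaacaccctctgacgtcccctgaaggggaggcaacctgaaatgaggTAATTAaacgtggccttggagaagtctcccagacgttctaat
Hepacam: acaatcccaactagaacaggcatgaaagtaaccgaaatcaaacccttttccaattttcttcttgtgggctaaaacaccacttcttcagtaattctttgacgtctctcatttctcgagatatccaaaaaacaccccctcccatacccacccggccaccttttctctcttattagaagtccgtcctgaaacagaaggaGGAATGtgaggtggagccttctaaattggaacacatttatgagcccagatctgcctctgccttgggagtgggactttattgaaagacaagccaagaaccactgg
Kcnj10: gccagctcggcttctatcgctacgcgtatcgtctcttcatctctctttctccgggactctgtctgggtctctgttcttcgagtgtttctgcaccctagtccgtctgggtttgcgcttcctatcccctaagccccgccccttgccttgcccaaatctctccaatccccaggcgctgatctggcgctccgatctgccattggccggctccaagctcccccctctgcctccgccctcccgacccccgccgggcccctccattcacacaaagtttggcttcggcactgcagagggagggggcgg

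The SOX motif was present in 10.6% of 21770 promoters of the same length, the TEAD motif in 14.0%, the NFI half-site in 14.0% and the AP-1 motif in 7.14%. Slc1a3 held a homeobox motif 9 bases after its start site and a TATA box motif on the opposite strand 176 before it, letters found in 5.51% and 13.2% of promoters. Hepacam held 1 TEAD motif, 54 bases before its start site. None of the 6 motifs matched in the Kcnj10 window. The windows also differed in CpG dinucleotides, with 4 in Slc1a3, 5 in Hepacam and 20 in Kcnj10, against a median of 11 over all promoters.

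Mlc1 stood 4.19-fold higher in DBA/2J. Its level was 57.0, 63.8 and 58.0 CPM across DBA/2J pools 1 to 3, against 15.2 and 13.2 CPM for Gpnmb+ pools 1 and 2. The DBA/2J pools were high and close together, the Gpnmb+ pools were low, and the groups were far from overlapping: the lowest DBA/2J pool was 3.74 times the highest Gpnmb+ pool. The raw counts were 2533, 2737 and 2585 against 772 and 645. The DBA/2J mean was 59.6 ± 3.67 CPM (SD, n = 3) and the Gpnmb+ mean 14.2 ± 1.44 CPM (SD, n = 2), a fitted log2 fold change of 2.07, or 4.19-fold. These are the values that chose the gene. The fitted log2 fold change lay between 1.97 and 2.18 with each pool left out in turn.

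**Figure D1:**
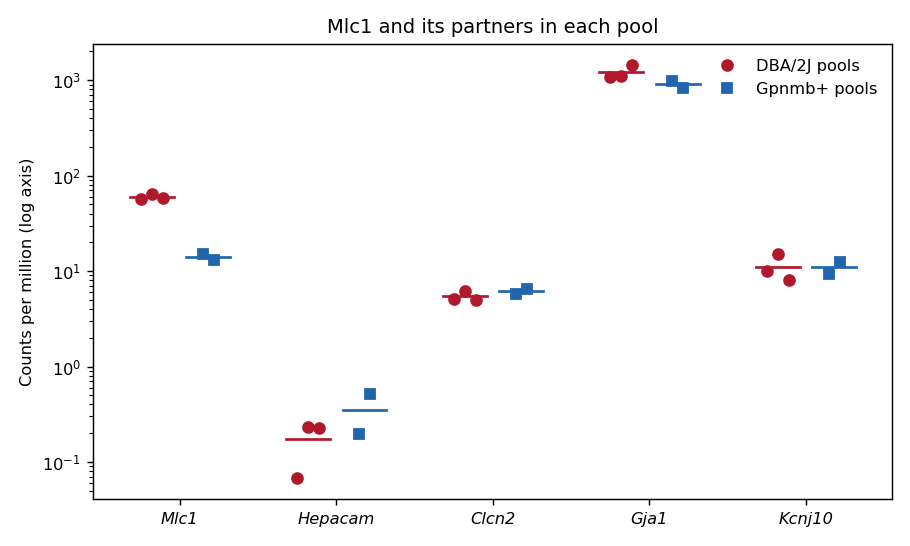
CPM (log axis) of Mlc1, Hepacam, Clcn2, Gja1 and Kcnj10 in each pool, with DBA/2J pools as circles, Gpnmb+ pools as squares and group means as horizontal lines. Mlc1 separates into 57.0 to 63.8 CPM in DBA/2J and 13.2 to 15.2 CPM in Gpnmb+, while the pools of Hepacam, Clcn2 and Kcnj10 overlap.

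None of the 4 partners passed the test. A gene was called where edgeR's quasi-likelihood test gave an adjusted p (Benjamini-Hochberg over all genes tested) no larger than 0.05 and the fold change reached 1.5, which held for 0.796% of all 19713 genes, 0.502% higher and 0.294% lower in DBA/2J. With unadjusted p-values and the same fold change minimum 0 of 4 partners were called as well. DESeq2, which called 4.7% of all genes, and limma-voom also called 0. The number of pools is small, and the intervals below say how large a difference the data still allow.

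Hepacam, the anchor of MLC1 at astrocyte junctions, lies on chromosome 9 from 37278621 to 37299291 and was barely detected. The DBA/2J pools gave 3, 10 and 10 counts, and Gpnmb+ pools 1 and 2 gave 10 and 25. The exact Poisson 95% intervals of these counts, which cover counting error only, ran from 0.619 to 8.77 for the count of 3 and from 16.2 to 36.9 for the count of 25. The pools overlapped, and Gpnmb+ pool 2, the pool with most photoreceptor RNA, stood highest. In CPM the DBA/2J mean was 0.175 ± 0.0931 (SD, n = 3) and the Gpnmb+ mean 0.354 ± 0.222 (SD, n = 2). Its fitted log2 fold change was -1.01 (95% interval -2.63 to 0.62, edgeR adjusted p = 0.518), and it was -0.17 without Gpnmb+ pool 2. No difference in Hepacam was detectable at this depth, and log2 fold changes from -2.63 to 0.62 lie within the interval.

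Clcn2, the chloride channel that GlialCAM recruits, lies on chromosome 16 from 20521714 to 20536496. Its level was 5.15, 6.20 and 4.95 CPM over the DBA/2J pools, and the Gpnmb+ pools had 5.76 and 6.54 CPM. The pools overlapped, with DBA/2J pool 2 between the Gpnmb+ pools. The log2 fold change was -0.18 (95% interval -0.60 to 0.24, edgeR adjusted p = 0.668). The Clcn2 exons share 1440 bases with Fam131a and 641 with Polr2h, both on the other strand and at 197 to 291 and 442 to 609 counts. The strand setting of the counting is not given in the sources used here, so reads of these overlaps cannot be assigned with certainty.

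Gja1, on chromosome 10 from 56253241 to 56278609, was the most abundant member. It stood at 1068, 1104 and 1456 CPM across DBA/2J pools 1 to 3, compared with 974 and 833 CPM for the Gpnmb+ pools. Every DBA/2J pool lay above both Gpnmb+ pools, by 1.10-fold at the closest, an arrangement that 17.3% of all tested genes showed in this direction and 34.5% in either. The mean was 1209 ± 214 CPM (SD, n = 3) against 903.7 ± 99.4 CPM (SD, n = 2). The log2 fold change of 0.42 (95% interval -0.0007 to 0.84) did not pass the test (edgeR adjusted p = 0.315). It was 0.27 without DBA/2J pool 3, the highest pool. The unadjusted p-value of Gja1 was 0.0503 in edgeR, 0.020 in DESeq2 and 0.0455 in limma-voom. Adjusted, those of DESeq2 and limma-voom were 0.162 and 0.302. Its 1.34-fold change also lay below the 1.5-fold minimum of a call.

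Kcnj10, on chromosome 1 from 172168765 to 172201652, had nearly equal means in the genotypes but spread pools. Its level was 9.94, 15.2 and 8.12 CPM across DBA/2J pools 1 to 3, and 9.40 and 12.5 CPM for Gpnmb+ pools 1 and 2. The highest DBA/2J pool was 1.87 times the lowest, and the Gpnmb+ pools lay between them. The log2 fold change was 0.02 (95% interval -0.69 to 0.72, edgeR adjusted p = 0.985). It became -0.28 without DBA/2J pool 2 and -0.18 without Gpnmb+ pool 1, so the data give it no direction. Within each genotype the pool with the most Kcnj10, pool 2 in both, was also the pool with the highest photoreceptor marker sum, at 858 CPM in DBA/2J and 1911 CPM in Gpnmb+. The part of retinal RNA in the Kcnj10 and Hepacam counts was not tested.

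The balance between Mlc1 and its partners can be read only per length, as FPKM (CPM per kilobase of annotated exon). In every pool the order was Gja1, Mlc1, Kcnj10, Clcn2 and Hepacam. Over the 5 pools the mean level was 88.4 FPKM for Gja1, 10.1 for Mlc1, 2.04 for Kcnj10, 0.767 for Clcn2 and 0.04996 for Hepacam. Gja1 thus stood above 98.0% of tested genes, Mlc1 above 81.4%, Kcnj10 above 47.5%, Clcn2 above 32.2% and Hepacam above 3.90%. The FPKM ranges of neighbouring genes in that order did not overlap, since Gja1 ran from 67.7 to 118, Mlc1 from 3.21 to 15.5, Kcnj10 from 1.50 to 2.81, Clcn2 from 0.665 to 0.878 and Hepacam from 0.0137 to 0.104. Mlc1 exceeded Hepacam in FPKM by 31.0 and 92.7 times in the Gpnmb+ pools and by 311 to 1014 times in the DBA/2J pools, ratios that rest on the few Hepacam counts. Against Kcnj10, Mlc1 was 1.39 and 2.14 times as high in Gpnmb+ and 5.53 to 9.42 times in DBA/2J. These ratios carry the Mlc1 level by which the gene was selected and are a description.

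The genes beside each member were compared to see whether a whole region moved. Of the 20 nearest protein-coding genes, 2 on each side of every member, 18 were tested and 0 were called by edgeR, and the smallest adjusted p-value was 0.165. Pools did not overlap in 7 of the 18 with DBA/2J higher and in 2 with DBA/2J lower, against 17.3% and 17.2% of all tested genes. Mov10l1, which encodes an RNA helicase of the germ line, lies 3728 bases from Mlc1 on the opposite strand. The DBA/2J pools held 15, 1 and 7 counts of it and the Gpnmb+ pools 3 and 0, too few to give a direction (log2 fold change 2.43, standard error 1.35, edgeR adjusted p = 0.439). Panx2, a pannexin 80563 bases away, was at 72, 57 and 65 counts against 28 and 54 (log2 fold change 0.83, edgeR adjusted p = 0.339). The 4 neighbours of Gja1, namely Msl3l2, Tbc1d32, Hsf2 and Serinc1, were each higher in every DBA/2J pool, by log2 fold changes of 0.14 to 0.55, without passing the test. They are not close to Gja1, at 260255, 148455, 1083752 and 1113241 bases in that order.

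The other proteins known to associate with MLC1 and GlialCAM, or with the dystrophin complex at astrocyte endfeet, were described next. None of the 13 listed genes was called by edgeR, their median log2 fold change was -0.11 against -0.02 over all genes, and the smallest adjusted p-value was 0.0867. Pools did not overlap for Aqp4, Dag1, Dtna and Gprc5b with DBA/2J higher and for Cav1, Atp1b1 and Tjp1 with DBA/2J lower, that is for 7 of 13, where 17.3% of all genes did not overlap with DBA/2J higher and 17.2% with DBA/2J lower. Aqp4, the water channel of glial endfeet and of the ciliary epithelium, was at 187, 168 and 152 CPM in DBA/2J and at 70.4 and 32.0 CPM in Gpnmb+. Its DBA/2J pools were all high, and its Gpnmb+ pools differed from each other by more than those of Mlc1. The log2 fold change was 1.72 (95% interval 0.92 to 2.53, edgeR adjusted p = 0.0867). DESeq2 called it with an adjusted p of 3.4e-06, where that test called 2.76% of all genes higher. Dtna, which encodes the scaffold alpha-dystrobrevin, had a log2 fold change of 0.57 (edgeR adjusted p = 0.0995) and Cav1, the main caveola protein, of -0.47 (edgeR adjusted p = 0.0959). Dag1, dystroglycan, had a log2 fold change of 0.33, and Lrrc8a, the obligatory subunit of the volume-regulated anion channel, of 0.01.

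Among 9 genes of glial potassium and glutamate uptake, 1 rose and 0 fell by edgeR, where 0.502% of all genes rose and 0.294% fell. The median log2 fold change of 0.67 was the value of Kcnj16 itself, with a standard error of 0.57 (edgeR adjusted p = 0.623). The gene that rose was Slc1a3, the glutamate and aspartate transporter GLAST. It stood at 89.1, 103 and 96.9 CPM in DBA/2J and at 39.2 and 32.8 CPM in Gpnmb+, with no overlap and a narrow spread in both groups. Its log2 fold change was 1.42 (standard error 0.12, edgeR adjusted p = 0.0217), and the call was lost without any 1 of the DBA/2J pools and without Gpnmb+ pool 2. Glul, glutamine synthetase, was at 1831 to 1866 CPM against 1273 and 986.5 (log2 fold change 0.71, edgeR adjusted p = 0.0885). Kcnk1, a background potassium channel, had a log2 fold change of 0.95 (edgeR adjusted p = 0.1003). Slc12a2, the sodium, potassium and chloride cotransporter, was the list's lowest value at -0.70 (edgeR adjusted p = 0.144), with 292 to 377 CPM in DBA/2J against 445 and 612. DESeq2 called Slc12a2 lower (adjusted p = 0.00775), where that test called 1.94% of all genes lower. Kcnj16, the subunit that pairs with Kir4.1, overlapped at 2.59 to 6.68 CPM against 3.51 and 1.47.

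**Figure D2:**
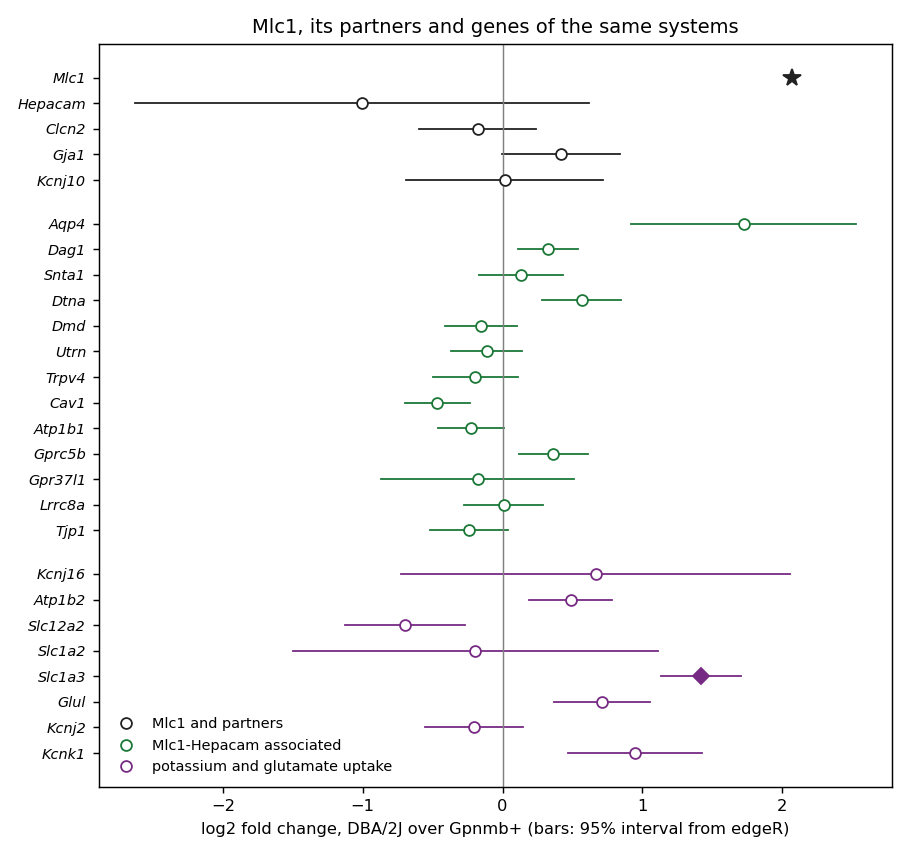
Log2 fold change of DBA/2J over Gpnmb+ for Mlc1 and its partners, the 13 associated genes and 8 of the 9 uptake genes, with 95% intervals from edgeR as bars and genes called by edgeR as filled diamonds. Mlc1, a star at 2.07, is drawn without an interval because it was chosen for this value, and Slc1a3, at 1.42, is the one filled diamond.

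The families of Gja1, Kcnj10 and Clcn2 were listed together with the LRRC8 channel subunits, and edgeR called no gene of these lists. Relatives of Hepacam were not listed. Of 22 other connexin and pannexin genes 17 were tested, edgeR called 0, DESeq2 called 1 (Gjc3, lower) and the median log2 fold change was -0.19. The family was otherwise sparse beside Gja1: after it, the highest mean in DBA/2J was that of Gjb2, connexin 26 of epithelia, at 6.83 ± 2.77 FPKM (SD, n = 3), against 98.3 ± 17.4 FPKM (SD, n = 3) for Gja1. Gjc3, a connexin of myelinating glia, stood at 1.37 to 1.59 CPM in DBA/2J and at 2.80 and 3.05 CPM in Gpnmb+ (log2 fold change -0.98, edgeR adjusted p = 0.101). Gja5, connexin 40 of arterial endothelium, had a log2 fold change of 0.97 (edgeR adjusted p = 0.313). Gjb6, connexin 30, the second astrocyte connexin, had -0.05.

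Among 14 other inward rectifier genes, 12 were tested, edgeR called 0, DESeq2 called 1 and the median log2 fold change was 0.08. Kcnj15 and Kcnj13, at 9.41 ± 1.57 and 8.07 ± 1.02 FPKM (SD, n = 3) in DBA/2J, were above Kcnj10 at 2.05 ± 0.680 FPKM (SD, n = 3). Kcnj13, an epithelial channel of the retinal pigment epithelium, had a log2 fold change of 0.37 (edgeR adjusted p = 0.231). Kcnj3, a G protein-gated subunit, was at 8.76 to 12.9 CPM in DBA/2J and at 4.61 and 3.01 CPM in Gpnmb+, with a log2 fold change of 1.51 (edgeR adjusted p = 0.0717), and DESeq2 called it (adjusted p = 8.3e-06). Kcnj14 stood at 1.46 CPM in Gpnmb+ pool 1 and 8.71 in Gpnmb+ pool 2, and the photoreceptor marker sum was likewise lowest and highest there. The part of retinal RNA in the Kcnj14 counts was not tested.

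The CLC family had 7 tested genes of 9 besides Clcn2, of which edgeR called 0 and DESeq2 2, and a median log2 fold change of 0.12. The most abundant was Clcn7, the chloride and proton exchanger of lysosomes, at 11.05 ± 0.630 FPKM (SD, n = 3) in DBA/2J, followed by the endosomal exchanger Clcn4 at 8.92 ± 0.313 FPKM. Clcn5, an endosomal exchanger, stood at 52.9 to 60.4 CPM against 39.5 and 32.8 (log2 fold change 0.63, edgeR adjusted p = 0.0789). DESeq2 called Clcn5, where it called 2.76% of genes higher and 1.94% lower. The 5 LRRC8 subunits lay between -0.19 and 0.04 on the log2 fold change scale, and 0 of them had pools that did not overlap.

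**Figure D3:**
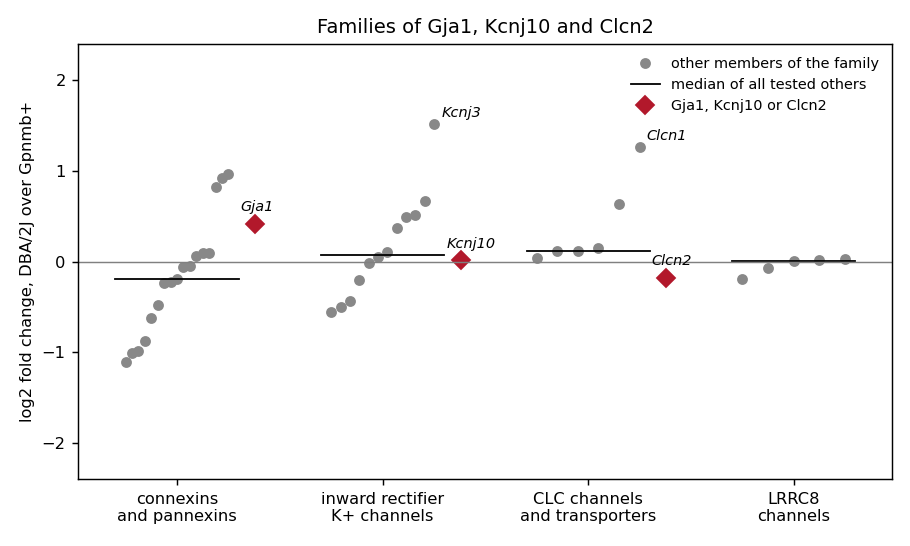
Log2 fold change of DBA/2J over Gpnmb+ for the members of each family (grey points, sorted), the median of all tested ones (black line) and Gja1, Kcnj10 or Clcn2 (red diamond). Medians lie at -0.19, 0.08, 0.12 and 0.01 from left to right, and Kcnj3, at 1.51, is the highest. The points show 6 of the 7 tested CLC genes.

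Among markers of other tissues near the angle, those of nonpigmented ciliary epithelium were higher in DBA/2J, as Mlc1 was. Mlc1 was chosen for that direction, so the shared direction is a description. Per the study's methods, remnants of iris and ciliary body stayed on the dissected ring. Of 8 markers of nonpigmented ciliary epithelium 7 were tested and detected in every pool, and 7 of 7 had every DBA/2J pool above both Gpnmb+ pools, as did 17.3% of all tested genes. The list summed to 922 to 1180 CPM in DBA/2J and to 374 and 199 CPM in Gpnmb+, a ratio of means of 3.66, and its median log2 fold change was 1.65. edgeR called Six6, an eye field transcription factor (log2 fold change 1.74), and Col9a1, a collagen IX chain (2.06), and DESeq2, which called 2.76% of all genes higher, called 7 of 7. Optc, opticin of the vitreous, had the largest value at 2.27 (edgeR adjusted p = 0.0543). The list sum and Mlc1 differed within Gpnmb+: pool 1 had 1.88 times the summed marker level of pool 2 but 1.15 times its Mlc1. Optc, the largest part of that sum, stood at 172 and 78.2 CPM in Gpnmb+ pools 1 and 2. Zic1 (63.7 and 28.4), Best2 (32.6 and 12.4), Zic2 (31.1 and 17.9) and Col9a1 (18.2 and 10.8) also differed widely. Six3 (44.6 and 42.0) and Six6 (11.7 and 9.28) differed less, so the markers did not share one ratio. The calls of Six6 and Col9a1 were both lost without any 1 DBA/2J pool and without Gpnmb+ pool 2. The part of ciliary epithelium in the Mlc1 level was not tested.

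Glial marker lists are given next. Over all tested genes edgeR called 0.502% higher and 0.294% lower, and DESeq2 called 2.76% higher. Of 8 Müller glia markers, edgeR called Slc1a3, which is also in the uptake list, and Dkk3 higher (2 of 8). The sum of the 8 was 4495 to 4975 CPM in DBA/2J against 2733 and 2178. Its largest parts were Dkk3 (mean 2297 CPM in DBA/2J and 962 in Gpnmb+) and Glul (1851 and 1130). The list median log2 fold change was 0.53. Pools did not overlap in 4 of the 8, with DBA/2J higher, as in 17.3% of all tested genes. Rlbp1, the retinaldehyde-binding protein that defines Müller cells and pigment epithelium, overlapped, with a log2 fold change of -0.20. Car14 (0.0006), Abca8a (0.16) and Crym (0.34) overlapped as well. Of 7 astrocyte markers 6 were tested, edgeR called 0 and DESeq2 called 3 higher, and the sum was 710 to 725 CPM against 459 and 374. Pax2, a transcription factor of optic nerve astrocytes, had 0 counts in every pool. Gfap, the intermediate filament of astrocytes, stood at 14.6 to 22.1 CPM against 7.14 and 9.14 (log2 fold change 1.09, edgeR adjusted p = 0.104), and Slc1a2, the main glutamate transporter of brain astrocytes, overlapped at 9.245 to 15.4 CPM against 5.87 and 22.7. Among Schwann cell markers 2 of 9 fell by edgeR, S100b among them, and 0 rose, and the list summed to 278 to 344 CPM in DBA/2J against 381 and 429. Of the 8 photoreceptor markers, edgeR and DESeq2 called 0. The calls of Dkk3 and S100b were lost without any 1 DBA/2J pool and without Gpnmb+ pool 2, and that of Dkk3 also with unscaled library totals or edgeR's filterByExpr. The word glial names the known role of the 5 genes, and the cells that made their RNA were not identified here.

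**Figure D4:**
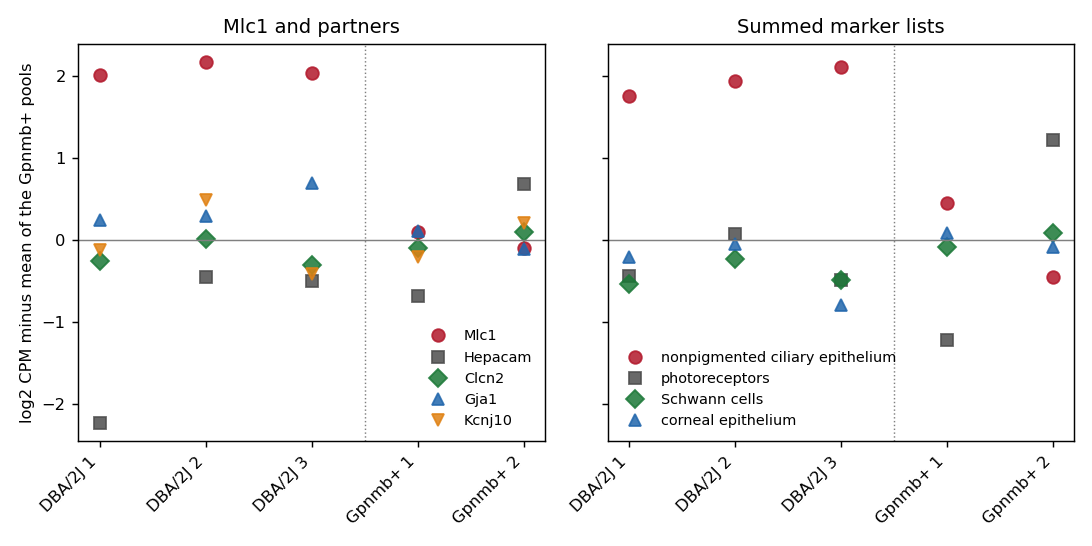
Log2 CPM in each pool minus the mean of the Gpnmb+ pools, for Mlc1 and its partners (left) and for the summed CPM of 4 marker lists (right), with the dotted line between genotypes. Mlc1 and the ciliary epithelium sum are high in the 3 DBA/2J pools. That sum, of which Optc is the largest part, differs more between the Gpnmb+ pools (374 against 199 CPM, where Mlc1 had 15.2 against 13.2). Hepacam and the photoreceptor list are both highest in Gpnmb+ pool 2.

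Among 5 pools, the genes whose pattern was most like that of a member were named by the root mean square difference between log2 CPM profiles, each centred on its own mean, over genes with a mean of at least 1 CPM. For Mlc1 these were the predicted gene Gm6647 (difference 0.09), St8sia1 (0.10), Ltbp2 (0.10), Ptchd4 (0.11), Fezf2 (0.12) and Cckbr (0.13). St8sia1, the sialyltransferase of ganglioside GD3, stood at 47.7 to 49.3 CPM in DBA/2J and at 12.7 and 12.4 CPM in Gpnmb+. Ltbp2, a latent TGF-beta binding protein of microfibrils, stood at 438 to 497 CPM against 116 and 94.5. Likeness over 5 pools mostly restates the difference between the genotypes, and these genes lie on chromosomes 5, 6, 12, 17, 14 and 7, away from Mlc1.

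The partners had other companions. Closest to Gja1 were Ppp1r9a (difference 0.02), which encodes the actin-binding neurabin, Lmo1 (0.03) and Pkp4 (0.03), a plakophilin of cell junctions, and all stood highest in DBA/2J pool 3. Nearest to Kcnj10 were Slamf7 (0.07), Ttc39c (0.07) and Capns2 (0.08), and Slamf7 was highest in DBA/2J pool 2 at 21.8 CPM and in Gpnmb+ pool 2 at 15.9 CPM within each genotype. Clcn2 varied little and resembled Nipal2 (0.01), Fem1c (0.02) and Plxna1 (0.02), genes whose Gpnmb+ levels lay within or just above the DBA/2J range. Hepacam, with few counts, resembled Sftpd (0.16), Slco1c1 (0.20) and Meg3 (0.21), and Slco1c1, a thyroxine transporter of the blood-brain barrier, was highest in Gpnmb+ pool 2 at 4.17 CPM.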

How the data were processed

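The members and gene lists were chosen with earlier results of these data known. RNA of 5 pools of mouse iridocorneal angle, 3 DBA/2J and 2 Gpnmb+, was sequenced after mRNA enrichment. Reads were trimmed (fastp) and aligned (STAR, GRCm39) by the authors, whose deposited table holds unnormalized whole-number counts per gene of reads with a unique alignment. The counting strand is not given in the sources used here. The empty second column of the table was ignored and 0 sample columns were left unused.

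Identifiers were matched to GENCODE mouse release M39 (GRCm39), which held 56323 of 56941. Cpamd8 and Chil1 matched no symbol. Genes reaching 10 counts in 1 or more pools were TMM-scaled and compared with edgeR 4.0.16 (quasi-likelihood test, no covariate, Benjamini-Hochberg over all 19713 genes tested) in R 4.3.3. The call threshold was an adjusted p of 0.05 together with a 1.5-fold change. Standard errors are the log2 fold change over the root of the F statistic, and 95% intervals use the moderated degrees of freedom. Log2 CPM for pattern likeness used a prior count of 2. FPKM used merged exon length. With 3 pools against 2, single-gene permutation tests were not used. On simulated counts for this comparison, with 200 of 19713 genes changed by 2 on the log2 scale, edgeR recovered 98.0% with 6 false calls. The changed genes had a mean above 1 CPM, and the simulated spread followed the trend with level and not each gene's own spread. Smaller changes, and changes in genes as low as Hepacam, were not simulated.

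Named genes were the members, the genes of the lists that were called, had an adjusted p of at most 0.1 or stood out in fold change or level, the neighbours, the closest patterns (6 for Mlc1, 3 for each partner), Gpnmb and the sex-linked genes. Other genes of the lists were named for their known role after their values were seen. Alternatives were DESeq2 1.42.0 with its size factors, its Wald test and ashr 2.2.63, limma 3.58.1 (voom), unscaled library totals, other filters and thresholds, the pool number as a block, each pool left out, longest transcript length and a prior count of 0.5. Motifs were searched on both strands of 21770 canonical protein-coding promoters; the 300-base windows overlap the first exon. Results for some genes and promoters are not reported here. Figures were drawn with matplotlib 3.10.9.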

Additional observations from a re-analysis of the deposited data

How the results depend on the processing

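With each pool left out in turn, Mlc1 stayed between 1.97 and 2.18 (log2 fold change), Hepacam between -1.53 and -0.17, Clcn2 between -0.28 and -0.08 and Gja1 between 0.27 and 0.54, and 0 of 4 partners were called in any setting. Kcnj10 ran from -0.28 to 0.24 and changed sign without DBA/2J pool 2 (-0.28), without Gpnmb+ pool 1 (-0.18), with unscaled library totals (-0.0261) and with limma-voom (-0.0213); the cause was not tested. Without a Gpnmb+ pool, the lone one was assumed to vary like the DBA/2J pools. DESeq2 gave Hepacam no adjusted p.

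All genes called numbered 157, and 927 with DESeq2, 734 with ashr moderation, 360 at 1 count in any pool, 1710 with unadjusted p-values, and 1 to 217 with a pool left out: 6, 1 and 17 without DBA/2J pools 1 to 3, and 217 and 2 without Gpnmb+ pools 1 and 2. DESeq2, with 4.7% of all genes called, called 1 of the associated genes, 5 uptake genes, 1 connexin, 1 inward rectifier and 2 CLC genes. These calls went in both directions, with Slc12a2 among the uptake genes and the connexin Gjc3 lower in DBA/2J. Of the markers DESeq2 called 7 ciliary epithelium, 4 Müller, 3 astrocyte, 4 Schwann, 4 trabecular meshwork, 2 pigment and 1 smooth muscle marker. With a pool left out, calls ran from 0 to 1 (associated, Schwann, pigment), 0 to 2 (uptake, astrocyte, photoreceptor), 0 to 3 (Müller) and 0 to 6 (ciliary epithelium), and were 0 for trabecular meshwork. Medians then ran from 1.21 to 2.29 for ciliary epithelium and from -1.53 to 0.95 for photoreceptors, the latter positive without Gpnmb+ pool 2.

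With the longest transcript as length, Gja1 had a mean of 190.3 FPKM and Clcn2 of 1.32, and the order of the 5 genes held. With a prior count of 0.5, 5 of the 6 genes most like Mlc1 were the same.

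The replicate block, taking pool numbers as pairs, called 220 genes and gave log2 fold changes of 2.09 for Mlc1, -1.26 for Hepacam, -0.12 for Clcn2, 0.27 for Gja1 and 0.18 for Kcnj10, with 0 of 4 partners called. The labels do not say that a number marks shared animals. Deviations of same-numbered pools from their group means correlated at 0.361 for number 1 and 0.351 for number 2, only 2 pairs. With 2 Gpnmb+ pools these deviations are mirror images, so the 2 values are not independent. DBA/2J pool 1 thus had -0.361 with Gpnmb+ pool 2, and DBA/2J pool 2 had -0.351 with Gpnmb+ pool 1. The numbers were not taken to pair the pools.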

Other observations

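The remaining marker lists give the other tissues of the dissection. Over all tested genes edgeR called 0.502% higher and 0.294% lower, and DESeq2 called 2.76% higher and 1.94% lower. Of the 6 tested trabecular meshwork markers, 2 fell by edgeR, Edn3 (log2 fold change -0.86) among them, and Cyp1b1 rose (0.81), with Myoc at -1.06 (edgeR adjusted p = 0.165). These 3 calls were lost with any 1 pool left out. Among 7 pigment cell markers Slc45a2 fell (-2.46), a call lost without DBA/2J pool 1 or 2 or Gpnmb+ pool 2, and 5 of 7 had negative log2 fold changes: Pmel -0.77 (called by DESeq2), Oca2 -0.27, Mlana -0.23 and Dct -0.07 besides it, with Tyr at 0.19 and Tyrp1 at 0.07. None of 7 corneal epithelium markers was called by edgeR or DESeq2, although Krt12, the keratin of differentiated corneal epithelium, stood at 421 to 11298 counts in DBA/2J and at 86337 and 27106 counts in Gpnmb+. Neither the 8 endothelial, the 6 smooth muscle, the 7 macrophage nor the 6 tested lens markers held a gene called by edgeR, DESeq2 called 1 smooth muscle marker (Lmod1, lower), and their median log2 fold changes were -0.02, -0.30, 0.28 and 0.23.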
